A study of Rattus norvegicus with 16 samples.

Results

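Keratins are the intermediate filament proteins of epithelial cells. A type I (acidic) keratin pairs with a type II (basic) keratin to build each filament, and rat genes for type I keratins cluster mostly on chromosome 10 and those for type II on chromosome 7. The 1-layered epithelium of the colon is known for the simple keratins Krt8, Krt18, Krt19 and Krt20, whereas many-layered (stratified) epithelia such as skin, oesophagus and the anal lining use Krt5 and Krt14 in their basal layer, Krt4 and Krt13 or Krt1 in their upper layers, and Krt6, Krt16 and Krt17 at sites of injury. Transcript levels of the whole family were compared in normal distal colon of rats with and without an Apc mutation and with and without dextran sodium sulfate (DSS), an agent that injures the colonic epithelium and causes colitis. The members were all rat genes named Krt followed by a number that had a probe on the array, 44 of the 15159 named genes measured. They were 4 simple keratins, 15 stratified keratins, 23 hair and nail keratins and 2 other epithelial keratins, Krt7 and Krt23. The 44 genes had 46 probes, and for Krt6c, which had 3, the brightest was used. The rat gene table listed 54 keratins, and the 10 without a probe, Krt6a and Krt10 among them, were not analysed here.

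All animals were male (ACIxF344)F1 rats sampled at 97 days of age, 4 to a group and 1 array to a rat. Wildtype rats (labelled Apc wild type) were untreated (rats 13, 17, 21 and 25) or given 4% DSS (rats 14, 18, 22 and 26). Pirc/+ rats, heterozygous for the Apc mutant allele Pirc in every cell of the body and called Pirc here, were untreated (rats 11, 15, 19 and 23) or given 4% DSS (rats 12, 16, 20 and 24). DSS was in the drinking water from day 40 to 47 and from day 54 to 61, so the tissue was taken 36 days after the last exposure. The strain label names Pirc for all 16 rats, and the genotypes given here are those of the genotype label. Each of the 2 slides held 2 rats of every group (slide 1 rats 11 to 18, slide 2 rats 19 to 26). Each group occupied 1 column of the array grid, so array column and group cannot be told apart.

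Values are log2 signals of the keratin's probe relative to the 75th percentile of that rat's array, so 0 is the 75th percentile and 1 unit is a factor of 2. They compare rats for 1 gene and not 1 gene with another. Between 71.11% and 80.32% of the spots on an array were well above background by the scanner software's own test, and no spot was saturated. Of the 44 keratins, 29 were well above background on all arrays of at least 1 group and 15 were not. A change counted as called where its adjusted p (limma, Benjamini-Hochberg over all 30367 probes) did not exceed 0.05 and its size was at least a factor of 2, and rose and fell are used of such changes. Two-sided tests were used throughout. Each ± is a standard error, and with the intervals and p it comes from 1 spread per gene taken over all 4 groups. It is therefore not the spread of the 2 groups compared. For Krt6c the SDs were 1.04 (DSS) and 0.11 (untreated) in Pirc rats. They were 3.86 and 0.31 in wildtype rats, yet the standard error was 1.29 for both DSS effects.

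In the DSS-treated wildtype group 2 rats lay at opposite ends. Rat 26 had the lowest level of its group for 11 of the 13 keratins that rose with DSS in Pirc rats, and lay within the range of untreated wildtype rats for 6 of them. Rat 22 had the highest level of the group for 11 of the 13. The keratins called higher with DSS in wildtype rats, and the values of Krt4, Krt14, Krt15 and Krt16 there, are given with and without these rats.

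After DSS, 17 of the 44 keratins changed in Pirc rats, 13 higher and 4 lower. The lower calls numbered 1 after normexp background correction or with only the compared groups fitted, and 2 with a filter on dim probes or a common floor. The share called among all named genes in that comparison was 9.30% (6.95% higher and 2.35% lower). In wildtype rats 6 of the 44 changed with DSS, 4 higher and 2 lower, beside 3.72% of all named genes (3.19% higher and 0.534% lower). Of the 15 stratified keratins 9 rose with DSS in Pirc rats, 4 rose in wildtype rats, and none of the 4 simple keratins was called in any comparison. The median change of the stratified keratins was 5.84 in Pirc rats and 2.27 in wildtype rats on the log2 scale, against 0.02 and 0.28 for the simple keratins and 0.02 and 0.08 for all named genes. With dim values raised to a common floor, the stratified medians were 5.78 and 2.50, and with normexp background correction they were 3.87 and 1.47. In 19 of the 44 keratins the DSS-treated and untreated Pirc rats did not overlap, in either direction, beside 20.4% of all named genes (10.3% with every treated rat above every untreated one). In bulk tissue, a change in the number of cells of a type and a change of RNA per cell cannot be told apart.

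**Figure D1:**
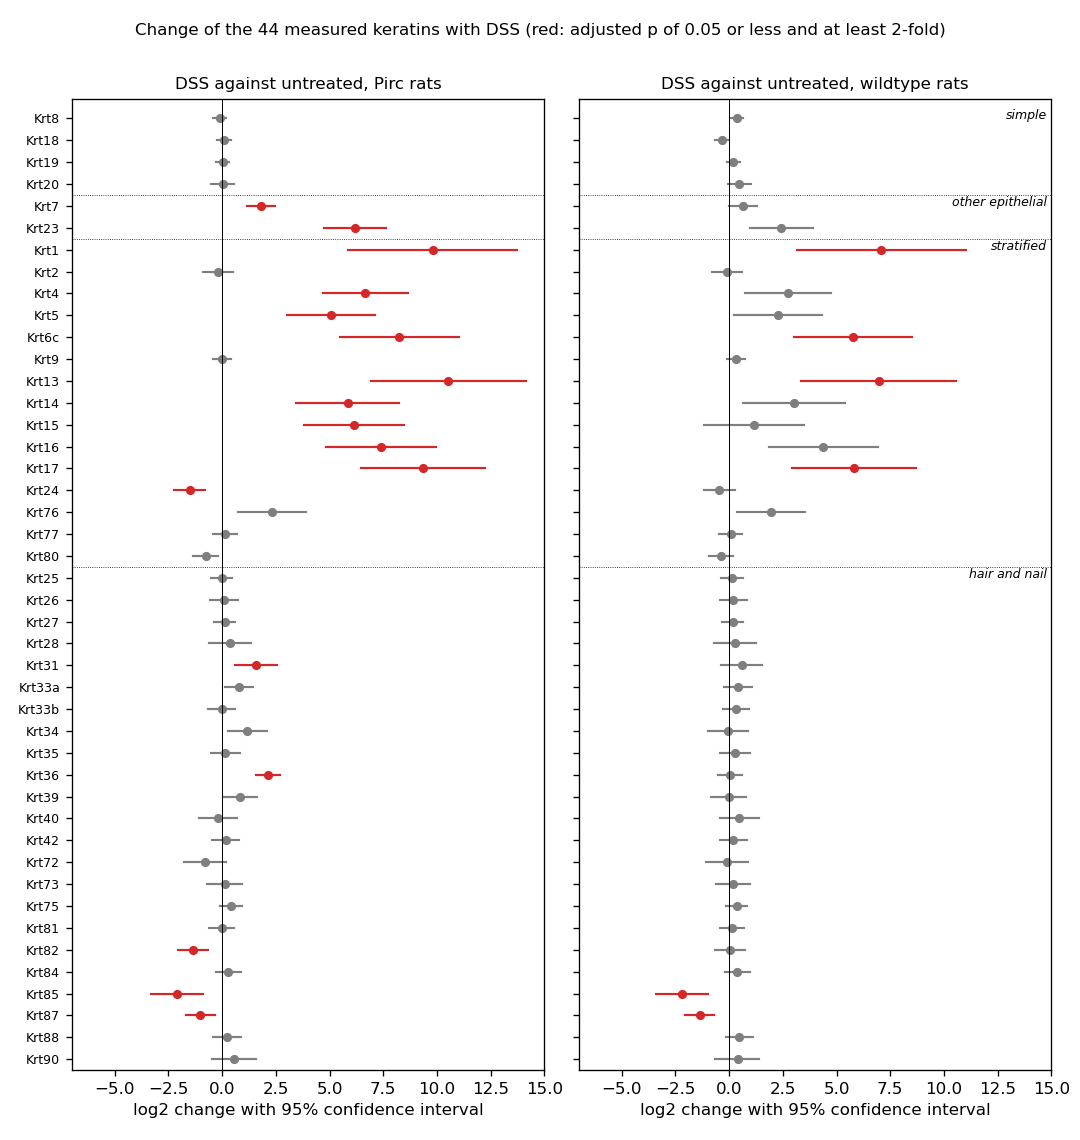
Change of each of the 44 measured keratins with DSS (x axis, log2 change with 95% confidence interval) in Pirc rats (left) and wildtype rats (right), 4 treated against 4 untreated, with keratins on the y axis grouped by class and called changes in red. The 4 simple keratins sit near 0 in both panels, whereas 9 stratified keratins lie between 5.05 and 10.52 in Pirc rats with wide intervals.

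The regions just before the start sites of 2 keratins that rose with DSS in Pirc rats and 2 simple keratins that did not are printed here. They are 250 bases each, from RefSeq on build GRCr8, read on the gene's own strand (minus for all 4). Krt4 lies at chr7:134930714-134930963, Krt23 at chr10:84946930-84947179, Krt8 at chr7:135010340-135010589 and Krt20 at chr10:84890286-84890535. Capitals mark matches on either strand to 3 motifs, TATAAA (the TATA box), TGANTCA (bound by AP-1 factors) and TTTATG (bound by the intestinal CDX factors).
Krt4: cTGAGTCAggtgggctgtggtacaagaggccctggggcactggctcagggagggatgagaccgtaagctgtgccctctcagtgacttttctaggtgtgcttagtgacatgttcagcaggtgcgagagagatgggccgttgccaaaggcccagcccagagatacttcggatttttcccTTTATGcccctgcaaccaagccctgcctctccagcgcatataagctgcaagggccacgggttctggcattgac
Krt23: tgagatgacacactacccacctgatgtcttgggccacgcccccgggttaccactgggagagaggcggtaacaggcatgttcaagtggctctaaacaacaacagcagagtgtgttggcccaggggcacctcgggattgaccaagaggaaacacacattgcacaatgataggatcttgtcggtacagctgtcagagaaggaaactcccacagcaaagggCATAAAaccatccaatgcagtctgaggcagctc
Krt8: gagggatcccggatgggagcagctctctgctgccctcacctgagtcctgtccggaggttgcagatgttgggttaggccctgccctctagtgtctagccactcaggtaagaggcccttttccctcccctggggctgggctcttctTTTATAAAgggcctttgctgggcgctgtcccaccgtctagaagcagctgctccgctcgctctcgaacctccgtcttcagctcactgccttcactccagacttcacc
Krt20: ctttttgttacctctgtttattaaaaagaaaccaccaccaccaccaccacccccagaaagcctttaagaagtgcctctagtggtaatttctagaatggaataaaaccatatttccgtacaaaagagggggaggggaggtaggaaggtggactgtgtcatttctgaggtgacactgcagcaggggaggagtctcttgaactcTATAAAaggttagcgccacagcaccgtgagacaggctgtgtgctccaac
In windows of 300 bases (250 before and 50 after the start), 33 of the 44 keratins had a promoter entry. Of those, 17 held the TATA box, 2 the AP-1 motif and 13 the CDX motif, and the shares of all 33469 promoters that held them were 14.2%, 7.33% and 12.7%. Among the 13 keratins that rose in Pirc rats, 6 had an entry, with a TATA box in 1, an AP-1 motif in 1 and a CDX motif in 3. Among the simple keratins 3 had an entry, with a TATA box in 2, an AP-1 motif in 1 (Krt8, at position 14 after the start, outside the bases printed) and a CDX motif in 0. A match is a description of letters in the window.

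None of the 4 simple keratins passed the threshold in any comparison. Krt8, the type II partner of Krt18 in colonocytes, was at 6.14, 5.86, 6.05 and 5.72 in untreated wildtype rats 13, 17, 21 and 25 and at 6.46, 6.35, 6.24 and 6.14 in DSS-treated wildtype rats 14, 18, 22 and 26. In untreated Pirc rats 11, 15, 19 and 23 it was at 5.90, 5.78, 5.70 and 6.0, and in DSS-treated Pirc rats 12, 16, 20 and 24 at 6.01, 5.73, 5.46 and 5.72. The Pirc groups overlapped. Between the DSS-treated groups Krt8 differed by -0.57 ± 0.14 (SE; adjusted p = 0.0133, limma), under the factor of 2 that a call required, and 18.8% of all named genes passed that adjusted p alone. Its change with DSS was -0.12 ± 0.14 in Pirc rats (95% confidence interval -0.42 to 0.19) and 0.36 ± 0.14 in wildtype rats (adjusted p = 0.199). Krt18, the type I partner of Krt8, was at 6.58, 6.57, 6.28 and 6.67 in untreated and 6.19, 6.19, 6.13 and 6.33 in DSS-treated wildtype rats, and at 6.19, 6.27, 6.17 and 6.80 in untreated and 6.45, 6.44, 6.65 and 6.19 in DSS-treated Pirc rats. It changed with DSS by 0.08 ± 0.15 in Pirc rats (interval -0.25 to 0.40), with overlapping groups. Krt19, a type I simple keratin of many ductal and gut epithelia, was at 6.92, 6.65, 6.66 and 6.54 in untreated and 7.03, 7.10, 6.84 and 6.59 in DSS-treated wildtype rats, and at 6.60, 6.66, 6.44 and 6.99 in untreated and 6.82, 6.77, 6.54 and 6.63 in DSS-treated Pirc rats. Its groups overlapped in both genotypes, and its change in Pirc rats was 0.02 ± 0.15 (interval -0.30 to 0.34). Krt20, the keratin of differentiated surface cells of the gut, had the widest range of the 4, from 5.78 in untreated Pirc rat 19 to 7.12 in untreated wildtype rat 13. It was at 7.12, 6.47, 6.22 and 6.04 in untreated and 7.11, 7.06, 6.98 and 6.54 in DSS-treated wildtype rats, and at 6.66, 6.62, 5.78 and 6.73 in untreated and 6.60, 6.64, 6.19 and 6.46 in DSS-treated Pirc rats. Its change with DSS was 0.03 ± 0.25 in Pirc rats (interval -0.51 to 0.56) and 0.46 ± 0.25 in wildtype rats (adjusted p = 0.393). The intervals of all 4 simple keratins in Pirc rats therefore stayed within a factor of 2 either way. The direction of the small Krt18, Krt19 and Krt20 changes in Pirc rats turned under quantile normalization.

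**Figure D2:**
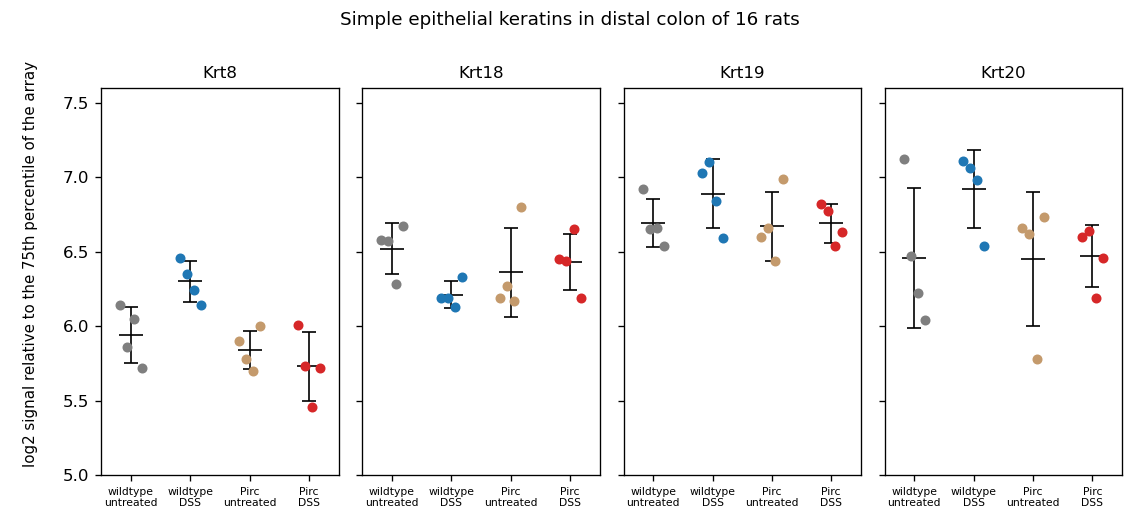
Level of the 4 simple keratins in each of the 16 rats (points; y axis, log2 signal relative to the array's 75th percentile, x axis the 4 groups), with the group mean and SD as bars. The 4 groups lie close together for each gene, and the y axis spans only the range from 5 to 7.6.

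All 3 basal-layer keratins measured rose with DSS in Pirc rats. Krt5, the type II keratin of basal cells, was at -4.75, -4.82, -5.39 and -4.64 in untreated Pirc rats and at -1.11, -0.86, 1.26 and 1.31 in DSS-treated Pirc rats 12, 16, 20 and 24. The rise was 5.05 ± 0.96 (adjusted p = 0.00285). Krt14, its type I partner, went from -3.33, -3.57, -4.37 and -4.03 to 0.92, 0.99, 2.95 and 3.19, a rise of 5.84 ± 1.11 (adjusted p = 0.00287). Both genes showed the same order of rats, with rats 20 and 24 of slide 2 above rats 12 and 16 of slide 1. Krt15, a type I keratin of basal and stem-like cells, was the basal keratin most uneven without treatment. It was at -2.01, -1.29, -4.06 and -3.26 in untreated Pirc rats and at 1.87, 2.93, 4.83 and 4.34 in DSS-treated Pirc rats, a rise of 6.14 ± 1.09 (adjusted p = 0.00176). In untreated wildtype rats Krt5 was at -4.62, -4.79, -5.12 and -4.98 and Krt14 at -3.60, -3.66, -4.11 and -4.23. In DSS-treated wildtype rats 14, 18, 22 and 26, Krt5 was at -4.26, -1.92, 0.82 and -5.05 and Krt14 at -2.89, 0.27, 3.07 and -3.94. Those values ran from the untreated level in rat 26 to the level of the DSS-treated Pirc rats in rat 22. Their changes in wildtype rats were 2.27 ± 0.96 for Krt5 (adjusted p = 0.237) and 3.03 ± 1.11 for Krt14 (adjusted p = 0.164), neither called. Krt15 changed by 1.15 ± 1.09 in wildtype rats (adjusted p = 0.694), from -2.67, -0.64, -2.07 and -4.02 untreated to -0.67, -1.16, 1.48 and -4.46 after DSS. The Krt15 change was 2.23 without rat 26 and 0.25 without rat 22, not called in either case. Without rat 26, Krt14 rose in wildtype rats by 4.05 (adjusted p = 0.0314), and without rat 22 its change was 1.71 (adjusted p = 0.314).

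The 3 injury-associated keratins measured rose in Pirc rats from levels that for 2 of them were not well above background. Krt6c, a type II keratin of the Krt6 group that wounded epidermis switches on, was at -3.95, -3.87, -3.74 and -4.0 in untreated Pirc rats and at 3.09, 4.07, 5.54 and 4.76 after DSS, a rise of 8.25 ± 1.29 (adjusted p = 0.000791). Its other 2 probes rose by 8.10 and 7.67. In wildtype rats Krt6c rose by 5.77 ± 1.29 (adjusted p = 0.0231), from -5.26, -5.68, -5.75 and -6.0 to 0.07, 1.5 and 3.97 in rats 14, 18 and 22 and -5.16 in rat 26. Rat 26 was thus just above the highest untreated wildtype rat, and the rise was 7.52 without it and 4.48 without rat 22. Since Krt6a, a close relative, had no probe, signal from its transcript on the Krt6c probes was not tested. Krt17, a type I keratin of injured and appendage epithelia, was not well above background on any untreated array (-8.18, -8.31, -8.20 and -7.76 in Pirc rats) and was at -0.01, 0.58, 2.29 and 2.12 in DSS-treated Pirc rats. It was at least 617-fold higher after DSS in Pirc rats (means 1.25 and -8.11, adjusted p = 0.000479) and at least 53.6-fold higher in wildtype rats (means -2.83 and -8.63, adjusted p = 0.0275). The wildtype values were -3.99, -1.20 and 1.65 in rats 14, 18 and 22 and at background in rat 26 (-7.76) and in the untreated rats (-8.49, -8.38, -8.93 and -8.72). The fitted wildtype change of 5.80 was 4.31 without rat 22 and 7.45 without rat 26, and its call was lost without rat 13, 14, 17, 18, 21 or 25. The folds given as at least, here and below, take the untreated level as the lowest signal that counted as well above background on each array. Where the probe's own signal was higher, that was used. They are lower bounds for that choice of level only. The common floor used as an alternative, -7.31, lay above the untreated means of Krt16 and Krt17 and gives smaller folds. Krt16, the type I partner of Krt6, was at least 133-fold higher after DSS in Pirc rats (means -1.59 and -8.99, adjusted p = 0.000951), at -2.58, -2.60, -0.05 and -1.14 against background values of -9.52, -9.32, -8.74 and -8.39. In wildtype rats Krt16 was at -5.51, -3.70 and -0.58 in rats 14, 18 and 22 and at background in rat 26 and in all 4 untreated rats, at least 17.2-fold higher after DSS (means -4.65 and -9.03). That difference missed the threshold (adjusted p = 0.0562). It passed without rat 26 (adjusted p = 0.00267) and not without rat 22 (adjusted p = 0.0900).

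**Figure D3:**
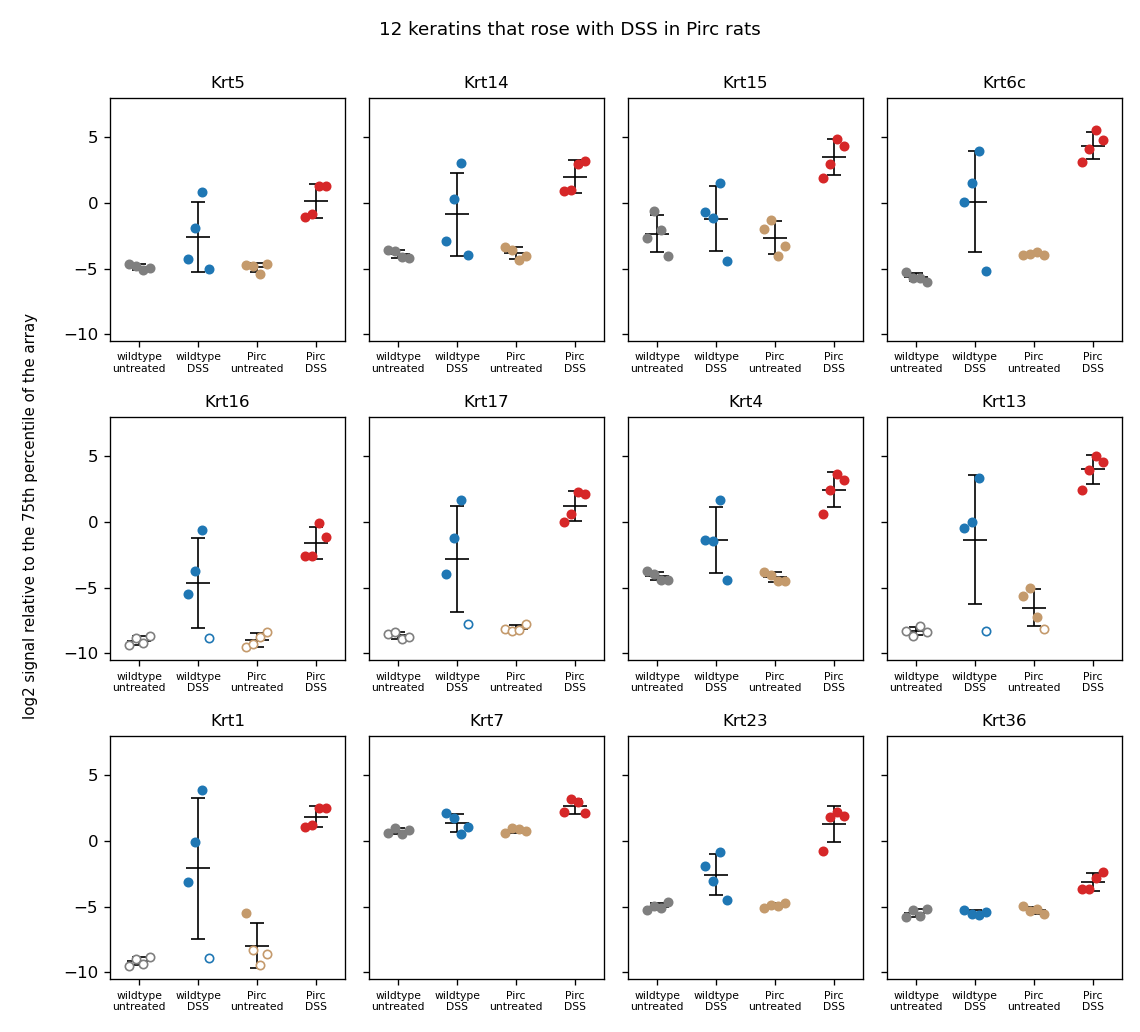
Level of 12 keratins that rose with DSS in Pirc rats, in each of the 16 rats (y axis, log2 signal relative to the array's 75th percentile; x axis, the 4 groups; open circles were not well above background; bars are mean and SD). All 4 DSS-treated Pirc rats lie above all 4 untreated Pirc rats in every panel, and DSS-treated wildtype rats spread widely in most.

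Of the mucosal keratins, the pair Krt4 and Krt13 of oesophageal and other wet stratified linings rose in Pirc rats. Krt13, the type I member, rose with a fitted change of 10.52 ± 1.69 (adjusted p = 0.000925). It was at -5.67, -5.03 and -7.25 in untreated Pirc rats 11, 15 and 19, at background (-8.15) in rat 23, and at 2.41, 3.98, 5.04 and 4.55 in DSS-treated Pirc rats. Krt13 was thus above background in 3 of 4 untreated Pirc rats and in none of the untreated wildtype rats (-8.32, -8.65, -7.89 and -8.36). In DSS-treated wildtype rats it was at -0.42, 0.00 and 3.32 in rats 14, 18 and 22 and at background in rat 26 (-8.26), at least 124-fold higher than untreated (means -1.34 and -8.31, adjusted p = 0.0335). The fitted wildtype change of 6.97 was 9.27 without rat 26 and 5.41 without rat 22, where the call was lost (adjusted p = 0.0684), as it was without rat 13, 14, 17, 18, 21 or 25. Krt4, the type II member, went from -3.79, -4.0, -4.48 and -4.48 in untreated Pirc rats to 0.62, 2.41, 3.66 and 3.21 after DSS, a rise of 6.66 ± 0.93 (adjusted p = 0.000378). It was at -3.75, -3.93, -4.39 and -4.41 in untreated and -1.37, -1.43, 1.68 and -4.45 in DSS-treated wildtype rats. Its change there was 2.73 ± 0.93 (adjusted p = 0.131), without rat 26 it rose by 3.75 (adjusted p = 0.00954), and without rat 22 its change was 1.70 (adjusted p = 0.260). Krt76, a type II keratin of the palate, was at background in every untreated rat and at least 4.98-fold higher after DSS in Pirc rats (means -5.10 and -7.41, adjusted p = 0.0502), just outside the threshold. It was called with scaling to the median of probes above background, the filter on dim probes or the common floor. It was also called with the probes of a gene averaged, and without rat 18, 20, 22 or 26.

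Among the epidermal suprabasal keratins, those of cells that have left the basal layer of skin, Krt1 changed. It was well above background in 1 of the 4 untreated Pirc rats (rat 11, -5.49; the others were at -8.30, -9.43 and -8.61) and in all 4 DSS-treated ones, at 1.10, 1.20, 2.50 and 2.56 in rats 12, 16, 20 and 24. The rise was called (adjusted p = 0.00261), and its fitted size of 9.80 ± 1.84 rests on 3 untreated values at background. In wildtype rats Krt1 was at -3.12, -0.09 and 3.86 in rats 14, 18 and 22 and at background in rat 26. That made it at least 106-fold higher than untreated (means -2.07 and -9.15, adjusted p = 0.0461), with the group ranges overlapping at rat 26, where it was at -8.92, against -9.48, -8.96, -9.34 and -8.81 untreated. The fitted wildtype change of 7.08 was 9.36 without rat 26 and 5.10 without rat 22 (adjusted p = 0.0795). The call was lost with quantile normalization, normexp, a common floor, slide as a block, only the compared groups fitted or no moderation, and without any 1 of the 16 rats but rat 26. The other 3 suprabasal keratins measured, Krt2, Krt9 and Krt77, were not called in any comparison. Krt80, a keratin found in many differentiating epithelia and well above background on every array, was not called either. Krt24, a stratified keratin not well above background on all arrays of any group, was called lower with DSS in Pirc rats (means -8.31 and -6.80, adjusted p = 0.00734). Only 2 of 4 untreated and 0 of 4 treated arrays were above background, so no fold is given. That call was lost with normexp, the filter on dim probes and the common floor.

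Both other epithelial keratins rose in Pirc rats. Krt7, a type II keratin of ducts and urothelium, had a probe that was well above background on all 16 arrays. It was at 0.61, 0.97, 0.95 and 0.75 in untreated Pirc rats and at 2.19, 3.21, 3.0 and 2.15 after DSS, a rise of 1.82 ± 0.31 (adjusted p = 0.00142). In wildtype rats it changed by 0.64 ± 0.31 (adjusted p = 0.323), from 0.60, 1.03, 0.52 and 0.82 untreated, with rat 14 at 2.11, rat 18 at 1.78, rat 22 at 0.55 and rat 26 at 1.09. Rat 22, highest of its group for most of the rising keratins, was the lowest for Krt7. Krt23, a type I keratin reported in several glandular epithelia, had the smallest adjusted p of the family, rising by 6.20 ± 0.68 in Pirc rats (adjusted p = 0.000113). It went from -5.12, -4.84, -4.90 and -4.73 in untreated Pirc rats to -0.74 in rat 12 and 1.85, 2.20 and 1.88 in rats 16, 20 and 24. In DSS-treated wildtype rats it was at -1.92, -3.06, -0.79 and -4.46, against -5.25, -4.96, -5.11 and -4.65 untreated, and its change of 2.43 ± 0.68 missed the threshold (adjusted p = 0.0625) although all 4 rats lay above all 4 untreated wildtype rats. The share of all named genes with all 4 DSS-treated wildtype rats above all 4 untreated ones was 8.21%.

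Most hair and nail keratins were not called with DSS, and 12 of the 23 were not well above background on all arrays of any group. The median change of the 23 with DSS was 0.15 in Pirc rats and 0.18 in wildtype rats. Krt36, a type I keratin of hair, nail and tongue, rose in Pirc rats from -4.94, -5.30, -5.18 and -5.56 to -3.67, -3.64, -2.79 and -2.36, by 2.13 ± 0.27 (adjusted p = 0.000196). In wildtype rats it was at -5.80, -5.28, -5.70 and -5.20 untreated and at -5.21, -5.58, -5.62 and -5.37 after DSS, a change of 0.05 ± 0.27 (interval -0.52 to 0.62). The wildtype groups overlapped. Krt31, a type I hair cortex keratin, rose by 1.59 ± 0.46 in Pirc rats (adjusted p = 0.0303), from -5.63, -5.84, -6.04 and -5.45 to -4.91, -4.64, -3.56 and -3.49. In wildtype rats it was at -5.56, -5.87, -5.65 and -5.79 untreated and -5.76, -5.04, -3.57 and -6.19 after DSS, with overlapping groups. The call in Pirc rats was lost with quantile normalization or normexp and without rat 11, 15, 19, 20 or 24, and the change ran from 1.37 (without rat 24) to 1.84 (without rat 12). 2 type II hair keratins fell with DSS in both genotypes. Krt85, a keratin of the hair matrix and cortex, was at -2.15, -3.87, -3.83 and -3.09 in untreated Pirc rats and at -4.73, -6.89 (not well above background), -5.32 and -4.41 after DSS, a decrease with a log2 change of -2.10 ± 0.57 (adjusted p = 0.0236). In wildtype rats it went from -3.77, -2.17, -3.43 and -2.62 to -5.68, -6.12, -4.61 and -4.38, a log2 change of -2.20 ± 0.57 (adjusted p = 0.0467). Krt87 changed by -1.01 ± 0.32 in Pirc rats (adjusted p = 0.0463), from -0.85, -2.31, -2.35 and -1.55 untreated to -2.78, -2.61, -3.05 and -2.64, and by -1.38 ± 0.32 in wildtype rats (adjusted p = 0.0261), from -2.01, -0.92, -2.02 and -1.31 untreated to -3.27, -2.93, -2.94 and -2.65. For Krt85 and Krt87 rat 26 lay below every untreated wildtype rat, though it was the least changed of the DSS-treated wildtype rats. Without it the wildtype changes were -2.47 for Krt85 and -1.48 for Krt87. The Krt85 call in Pirc rats was lost with only the compared groups fitted and without rat 11, 16 or 20 (lowest size -1.58, without rat 16), and the Krt87 call in Pirc rats when 1 of 10 rats was left out (lowest size -0.70, without rat 11), and with slide as a block, normexp, scaling to the median of probes above background, only the compared groups fitted or no moderation. The Krt85 call in wildtype rats was lost when 1 of 11 rats was left out (lowest size -1.89, without rat 18), and with array row as a block, only the compared groups fitted or no moderation, and the Krt87 call without rat 14, 17, 18 or 25 (lowest size -1.17, without rat 17). Krt82 was called lower in Pirc rats (means -8.69 and -7.34, adjusted p = 0.0138), with 1 of 4 untreated and 0 of 4 treated arrays well above background. That call was lost with normexp, the filter on dim probes, the common floor or only the compared groups fitted, and no fold is given.

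The size of the rise varied between rats. The difference of each stratified keratin from its mean in untreated wildtype rats, taken as the median over the 15 genes, was 4.22, 4.89, 6.85 and 6.69 in DSS-treated Pirc rats 12, 16, 20 and 24. In DSS-treated wildtype rats it was 1.01, 2.96 and 5.70 in rats 14, 18 and 22 and -0.04 in rat 26. Rat 22 thus lay among the Pirc rats and rat 26 among the untreated rats. In untreated Pirc rats the same median was between 0.24 and 0.46, and in untreated wildtype rats between -0.21 and 0.19. Within slides, Krt4, well above background on all arrays, differed with DSS in Pirc rats by 5.41 on slide 1 and 7.91 on slide 2. Krt6c differed in wildtype rats by 6.26 and 5.28. These values come from the same rats as the calls and are given as a description.

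**Figure D4:**
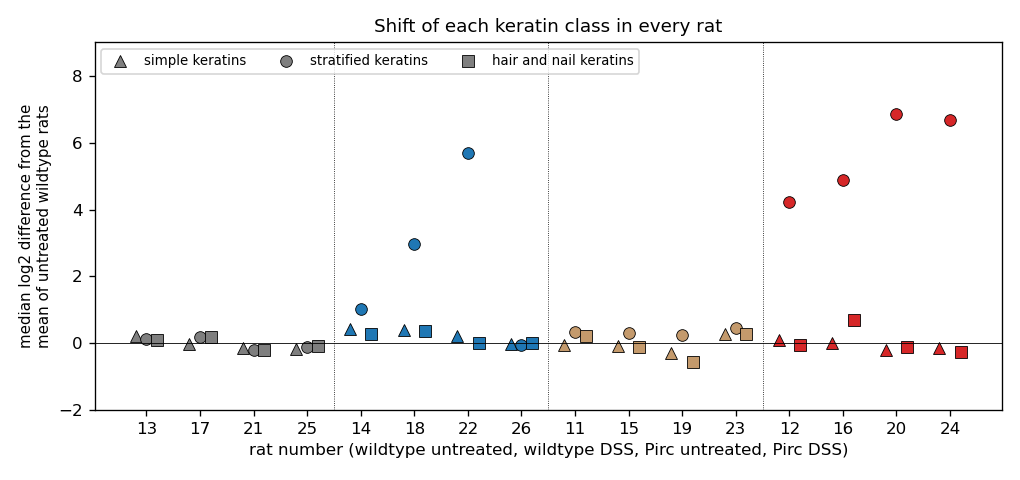
Shift of the simple, stratified and hair and nail keratins in every rat (y axis, log2 difference from each gene's mean in untreated wildtype rats, median over the class; x axis, rat number in 4 groups). The stratified keratins reach 4.22 to 6.85 in the 4 DSS-treated Pirc rats and range from -0.04 to 5.70 in DSS-treated wildtype rats, while the other 2 classes stay between -0.56 and 0.69.

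Leaving out rat 26 brought the number of keratins called with DSS in wildtype rats from 6 to 10, of which 8 rose (Krt4, Krt14, Krt16 and Krt23 besides Krt1, Krt6c, Krt13 and Krt17). The median change of the stratified keratins was then 3.09. Without rat 22 instead, 4 were called, 2 higher (Krt6c and Krt17) and 2 lower (Krt85 and Krt87), and the stratified median was 1.5. The number called was 0 without rat 14, 17, 18 or 25, 1 without rat 21 and 2 without rat 13. The call of Krt1 in wildtype rats was lost when 1 of 15 rats was left out, that of Krt13 with 1 of 7, that of Krt17 with 1 of 6 and that of Krt6c with 1 of 5. Krt13 and Krt17 were also lost with normexp, only the compared groups fitted or no moderation, Krt17 with a common floor too, and Krt6c with only the compared groups fitted. The number in Pirc rats ran from 14 without rat 11 to 18 without rat 23. Krt1, Krt4, Krt5, Krt6c, Krt7, Krt13, Krt14, Krt15, Krt16, Krt17, Krt23 and Krt36, 12 keratins, were called higher in Pirc rats under each of the 14 settings and with each rat left out. Among the settings, no minimum change and an adjusted p of 0.20 only loosened the threshold, so no call could be lost there.

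The genotypes were also compared in rats that never received DSS, to see how the family differed with the Apc mutation alone. No keratin was called between untreated Pirc and untreated wildtype rats, and 0 of the 15159 named genes were (limma); 1 of the 44 keratins had an unadjusted p under 0.05, beside 10.8% of all named genes. The median difference was -0.06 for the simple and 0.33 for the stratified keratins. That 1 was Krt80, higher in Pirc rats by 0.86 ± 0.27 (unadjusted p = 0.00606, adjusted p = 0.302, limma), at 0.95, 0.52, 1.28 and 0.38 in untreated Pirc rats and 0.31, -0.74, 0.24 and -0.13 in untreated wildtype rats. For 3 keratins, Krt80, Krt6c and Krt17, all 4 untreated Pirc rats lay above all 4 untreated wildtype rats, as did 4.87% of all named genes. Krt17 was at background in both groups. Krt6c was at -4.0 to -3.74 in untreated Pirc rats and -6.0 to -5.26 in untreated wildtype rats, and its difference of 1.78 ± 1.29 was far from the threshold (adjusted p = 0.685); the fit took 1 spread from all 4 groups, and the difference was called when only the untreated groups were fitted. These 3 keratins are named here after their values were seen.

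After DSS, 9 keratins differed between Pirc and wildtype rats, 8 higher in Pirc rats and 1 lower, beside 6.39% of all named genes (3.62% higher and 2.77% lower). These comparisons use the same DSS-treated Pirc rats as those above. Krt36 was higher in Pirc rats by 2.33 ± 0.27 (adjusted p = 0.000289), Krt23 by 3.86 ± 0.68 (adjusted p = 0.00274) and Krt7 by 1.26 ± 0.31 (adjusted p = 0.0134), each with no overlap between the groups. Krt15 was higher by 4.70 ± 1.09 (adjusted p = 0.00967), also with no overlap. In 8.54% of all named genes every DSS-treated Pirc rat lay above every DSS-treated wildtype rat. Krt4 (3.87 ± 0.93, adjusted p = 0.0115), Krt6c (4.27 ± 1.29, adjusted p = 0.0335), Krt13 (5.34 ± 1.69, adjusted p = 0.0406) and Krt17 (4.07 ± 1.35, adjusted p = 0.0493) were higher with overlapping groups, as wildtype rat 22 reached the Pirc range. Without rat 26 the median difference of the stratified keratins went from 2.89 to 1.67, Krt13 from 5.34 to 3.03 and Krt6c from 4.27 to 2.52, and Krt17 was no longer called (2.43, adjusted p = 0.0927). Without rat 22 the median was 4.20 and 12 keratins were called. The Krt13 call was lost when 1 of 11 rats was left out, the Krt6c call without rat 14, 20 or 24, and the Krt7 call without rat 22 (0.98). The Krt17 call was lost when 1 of 15 rats was left out. It was also lost with slide or array row as a block, or scaling to the median of probes above background. Krt36 and Krt23 were called under each of the 14 settings (the looser thresholds among them could not lose a call) and with each rat left out. They were the 2 keratins called with only the compared groups fitted. Without moderation 6 were called, with Krt6c, Krt13 and Krt17 lost. Krt5, Krt14, Krt16 and Krt1 were not called (2.75, 2.89, 3.06 and 3.91). Each was called without rat 22, and Krt5 also with the filter on dim probes or without rat 16. The differences of Krt14, Krt16 and Krt1 were 4.20, 4.42 and 5.88 without rat 22, and 1.86, 1.67 and 1.63 without rat 26. Krt82, at background in both groups, was called lower, and that call was lost with quantile normalization, normexp, the filter on dim probes or the common floor, and without rat 12, 18, 20, 22 or 24.

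Whether DSS acted differently in the 2 genotypes was tested as the difference between the DSS effects. No keratin was called, 8 of the 44 had an unadjusted p under 0.05 beside 11.7% of all named genes, and 0.0594% of all named genes were called (limma). The larger number of keratins called in Pirc rats than in wildtype rats is therefore not shown to be a difference in response. Krt36 came nearest, with a DSS effect larger in Pirc rats by 2.08 ± 0.38 (adjusted p = 0.0868), and it was called when dim values were raised to a common floor, or without rat 12 or rat 16. Krt23 followed, with 3.76 ± 0.96 (adjusted p = 0.203), called without rat 12. Krt15 (5.0 ± 1.54, adjusted p = 0.289) and Krt4 (3.93 ± 1.31, adjusted p = 0.321) had larger but less precise differences.

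Markers of the tissue and of other cell types were measured in the same rats. Beside the counts called with DSS in these lists, 6.95% of all named genes were called higher and 2.35% lower in Pirc rats. In wildtype rats those shares were 3.19% and 0.534%. The 11 colonic epithelium genes measured were well above background in every rat and their summed signal, led by Lgals4 (an intestinal galectin), was 339 to 431 times the 75th percentile in untreated Pirc rats and 358 to 539 times in DSS-treated Pirc rats. In wildtype rats the sums were 386 to 452 untreated and 445 to 549 after DSS. Slc26a3, the chloride and bicarbonate exchanger of surface colonocytes, was the 1 member that fell, by 1.72 on the log2 scale with DSS in Pirc rats (adjusted p = 0.00268), and it was 2.25 lower on that scale (log2 change -2.25, adjusted p = 0.000932) in DSS-treated Pirc than in DSS-treated wildtype rats. The other 10 did not reach a factor of 2 together with the adjusted p. With DSS in Pirc rats the adhesion molecule Epcam changed by -0.42 (adjusted p = 0.0215) and the cadherin Cdh17 by 0.71 (adjusted p = 0.00755), and the intestinal homeobox factor Cdx2 by 0.20. Between DSS-treated genotypes Epcam, Cdh1, Vil1 and Hnf4a were at log2 differences of -0.56, -0.61, -0.62 and -0.87 in Pirc rats, all 4 past the adjusted p alone, as were 18.8% of all named genes. Their part in the keratin differences was not tested.

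Of the squamous epithelium genes listed, 5 had a probe, and 4 of those rose with DSS in Pirc rats. Sprr3, a cornified envelope precursor of the oesophagus, rose by 7.31 ± 1.16 (adjusted p = 0.000879), Sbsn by a fitted 6.77 ± 1.22 (adjusted p = 0.00205; well above background in 1 of 4 untreated Pirc rats), Cnfn by 5.75 ± 0.78 (adjusted p = 0.00031) and the desmosomal cadherin Dsg3 by 2.57 ± 0.52 (adjusted p = 0.00411; above background in 3 of the 4). In wildtype rats Sprr3 rose by 4.64 ± 1.16 (adjusted p = 0.0389). Cnfn (2.69 ± 0.78, adjusted p = 0.0735) and Dsg3 (1.44 ± 0.52, adjusted p = 0.156) were not called there. Sbsn was not called there either (a fitted 4.16 ± 1.22, adjusted p = 0.0773, at background in every untreated wildtype rat). No squamous gene was called for the difference between the DSS effects (limma). Ivl (involucrin), a defining marker of the cornified envelope, was not well above background on any array. The summed squamous signal, led by Cnfn in every rat, was 0.536 to 0.806 in untreated Pirc rats and 14.5, 44.8, 73.3 and 51.2 in DSS-treated Pirc rats 12, 16, 20 and 24. In DSS-treated wildtype rats it was 3.74, 5.91 and 38.7 in rats 14, 18 and 22 and 0.760 in rat 26, against 0.636 to 0.686 untreated. Rats 12 and 26, lowest of their groups for most rising keratins, were thus lowest here too. The part of such cells in the keratin changes was not tested.

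Urothelium is the lining of the bladder. Of its 4 genes measured, the uroplakins Upk1b (a fitted 9.14 ± 1.0, adjusted p = 0.000113, well above background in 2 of 4 untreated Pirc rats), Upk1a (3.44 ± 0.43, adjusted p = 0.000202) and Upk3a (1.58 ± 0.25, adjusted p = 0.000875) rose with DSS in Pirc rats, and Upk2, a defining urothelial gene, was not well above background on any array. Their summed signal was 0.140 to 0.202 in untreated Pirc rats and 1.56, 3.99, 11.1 and 6.92 in DSS-treated Pirc rats. The Upk1b probe gave the largest share of the sum in those 4 rats. In DSS-treated wildtype rats it was 0.201 to 0.585, against 0.137 to 0.206 untreated, and Upk1b rose there (a fitted 4.29 ± 1.0, adjusted p = 0.0284, above background in 2 of 4 untreated rats). 1 of 3 mesothelium genes, Msln, rose in Pirc rats (a fitted 3.15 ± 0.87, adjusted p = 0.026, well above background in 1 of 4 untreated rats), with summed signals of 0.0133 to 0.0178 untreated and 0.0220 to 0.144 after DSS. Of 5 smooth muscle genes Des (desmin) fell in Pirc rats, by 1.87 on the log2 scale, and the other 4 were not called, with changes of 0.34 (Acta2), 1.38 (Myh11), 3.58 (Tagln, in 2 of 4 untreated rats above background) and 0.66 (Cnn1, at background in both groups). The summed signal was 0.974 to 1.38 untreated and 0.486 to 1.46 after DSS. In wildtype rats the smooth muscle sum was 0.927 to 3.36 untreated and 0.816 to 3.95 after DSS, the highest being rat 26, and the mesothelium sum was 0.0127 to 0.0677 untreated and 0.0300 to 0.248 after DSS. The part of these cells in the keratin levels was not tested.

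Of 7 leukocyte genes measured, 6 rose with DSS in both genotypes, among them the neutrophil gene S100a8 (4.58 ± 0.61 in Pirc rats, 2.57 ± 0.61 in wildtype rats) and the macrophage gene Lyz2 (3.66 ± 0.39 and 2.29 ± 0.39). Their summed signal was 1.52 to 1.83 in untreated wildtype rats and 6.06 to 13.9 after DSS, and 1.75 to 2.97 in untreated Pirc rats and 16.9 to 49.4 after DSS. Rat 26, at 6.06, was the lowest DSS-treated rat yet above every untreated rat. The part of these cells in the keratin changes was not tested.

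**Figure D5:**
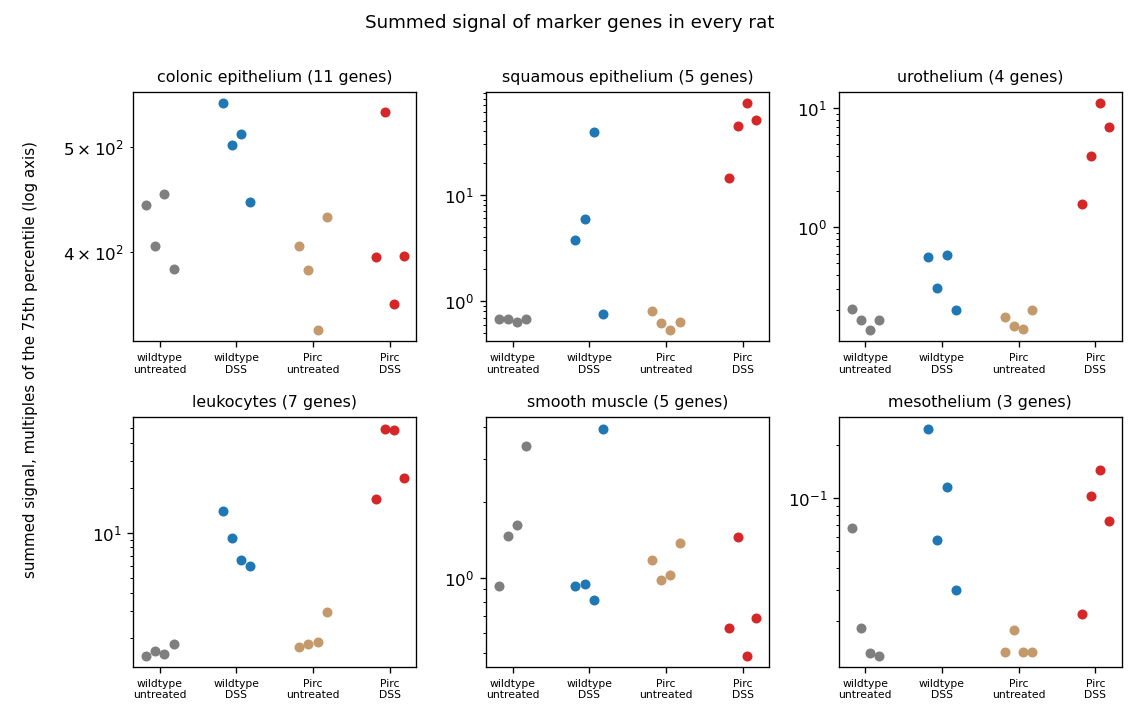
Summed signal of marker genes for 6 cell types in each of the 16 rats (points; y axis, multiples of the array's 75th percentile, log scale that differs between panels; x axis, the 4 groups). Squamous and urothelial sums are higher in all 4 DSS-treated Pirc rats than in any untreated rat, colonic epithelium sums of DSS-treated and untreated rats overlap within each genotype, and 1 DSS-treated wildtype rat sits at the untreated level of the squamous genes.

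Genes for proteins that anchor keratin filaments were also measured. Of 10 desmosome and plakin genes measured, 2 rose with DSS in Pirc rats and none in wildtype rats, beside 6.95% and 3.19% of all named genes. Ppl (periplakin), a linker of keratins to the cornified envelope, rose by 4.01 ± 0.48 (adjusted p = 0.000155) and Dsg3, which the squamous genes also hold, by 2.57. Dsg3 changed by 1.44 ± 0.52 in wildtype rats (adjusted p = 0.156). None of these genes was called for the difference between the DSS effects (limma). Plec (plectin) and Evpl (envoplakin) changed by 0.08 and 0.14 in Pirc rats. Of the 8 intermediate filament genes outside the keratin family, Vim (vimentin), the filament of mesenchymal cells and leukocytes, rose with DSS in both genotypes (1.52 ± 0.37 in Pirc, 1.89 ± 0.37 in wildtype rats), Synm (synemin) rose in wildtype rats (2.33 ± 0.46), and Des fell in Pirc rats as above.

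Of 11 epithelial transcription factors measured, 3 rose with DSS in Pirc rats and none in wildtype rats, beside 6.95% and 3.19% of all named genes. Trp63, Cdx1, Grhl1 and Grhl3 were listed too but had no named probe. None of those measured was called for the difference between the DSS effects (limma). Sox2, a factor of foregut and stratified epithelia, was at background in every untreated Pirc rat and at least 95.1-fold higher after DSS (means -1.72 and -8.48, adjusted p = 0.000521). In wildtype rats Sox2 was well above background in DSS-treated rats 14, 18 and 22, and at background in rat 26 and every untreated rat. Pitx1, a hindgut and hindlimb factor, rose by 1.20 ± 0.24 (adjusted p = 0.00419). Tfap2c, of surface ectoderm, was called higher (means -7.47 and -8.78, adjusted p = 0.0076). It was above background in only 1 DSS-treated Pirc rat, so no fold is given. Klf4 and Klf5, Krüppel-like factors of the gut, changed by -0.64 and -0.34 and were not called. Cdx2 and Hnf4a, which the colonic epithelium genes also hold, changed by 0.20 and -0.36.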

How the data were processed

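RNA from 16 rats, 4 per group, was hybridised by the authors to single-colour arrays, and the deposited files hold spot intensity values from Agilent Feature Extraction 10.7.3.1, background-subtracted by that software and not scaled between arrays. Of 62976 spots per array, 4259 control spots were left out. Outlier-flagged spots were dropped, spots averaged over 30367 probes, and log2 intensity taken minus the array's log2 75th percentile. 18006 probes were named through accessions in the RefSeq table (GRCr8) and 12361 could not be. Each gene was represented by its brightest probe. Groups came from the genotype and treatment labels. limma 3.58.1 (R 4.3.3) fitted all 16 arrays with 1 mean per group, with Benjamini-Hochberg adjustment over all probes, and was tested on simulated data. The members, gene lists and tests were chosen with earlier results of these data known. Keratins named with values for each rat were the simple keratins, Krt7 and Krt23. So was every other keratin called in any comparison and well above background on all arrays of a group. For Krt16, values at background in wildtype rats were not printed. Krt80, not called, was given for the untreated rats only, after its values were seen. Alternatives covered scaling, background correction, dim probes, slide, array row, threshold and each rat left out. The number of arrays limits precision.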

Additional observations from a re-analysis of the deposited data

Results flagged for a closer look

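In 3 of 76 groups of 4 rats, 1 rat stood far from the other 3 by Dixon's test, where chance would give about 3.8. Untreated Pirc rat 23 had the highest Krt18 of its group (6.80), untreated Pirc rat 19 the lowest Krt20 (5.78), and DSS-treated Pirc rat 12 the lowest Krt23 (-0.74).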

How the results depend on the processing

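Of 14 settings, those that follow moved a count by over 1.5 times or a median by more than its spread between rats. Keratins called with DSS in wildtype rats numbered 3 with normexp background correction, 1 with only the compared groups in the fit, 2 without moderation and 11 at an adjusted p of 0.20. Between untreated genotypes 1 (Krt6c) was called with only the compared groups, and after DSS 2 were. For the difference between DSS effects 1 (Krt36) was called with a common floor and 1 at an adjusted p of 0.20. With normexp the median change of stratified keratins in Pirc rats was 3.87, and the median genotype difference of simple keratins after DSS was -0.56. Smaller moves included 13 keratins called with DSS in Pirc rats with normexp and 14 with only the compared groups, and 6 between genotypes after DSS without moderation. The cause was not tested.

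With each rat left out in turn, keratins called numbered 14 to 18 for DSS in Pirc rats, 0 to 10 for DSS in wildtype rats, 0 to 0 between untreated genotypes, 5 (without rat 20 or 24) to 12 (without rat 22) between genotypes after DSS, and 0 to 2 for the difference between DSS effects. The median of that difference over stratified keratins was 0.73 without rat 26 and 3.92 without rat 22.

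Directions turned only for changes near 0. Under quantile normalization Krt18, Krt19 and Krt20 changed by -0.06, -0.16 and -0.16 with DSS in Pirc rats, Krt36 by -0.17 in wildtype rats, and Krt18 by -0.05 between DSS-treated genotypes. With normexp the same values were -0.06, -0.18, -0.17, -0.12 and -0.07. With each rat left out, the change with DSS in Pirc rats ran from -0.06 to 0.13 for Krt19 and from -0.20 to 0.12 for Krt20, that in wildtype rats from -0.05 to 0.15 for Krt36, the difference between untreated genotypes from -0.13 to 0.06 for Krt19 and from -0.15 to 0.21 for Krt20, and that after DSS from -0.45 to 0.38 for Krt85.

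The groups share no replicate numbers, so rats were not paired by number. Slide and array row each hold all 4 groups, and were fitted as blocks instead. With slide, or slide and array row together, 16 keratins were called with DSS in Pirc rats (Krt87 was lost), 5 in wildtype rats (Krt1 was lost) and 8 between genotypes after DSS (Krt17 was lost). With array row the numbers were 17, 5 (Krt85 was lost) and 8 (Krt17 was lost). Between untreated genotypes and for the difference between DSS effects, 0 were called in each of these fits (limma).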
